A study of Ovis aries with 15 samples.

Results

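The genes described here are those that the array names with the stem PTG, the gene symbols of the prostaglandin pathway. They were found by name in the array annotation, without use of any measured value, and 8 of the 15008 probes without controls carry such a name. The 8 probes cover 5 genes. PTGS1 and PTGS2 encode the cyclooxygenases, the enzymes that commit arachidonic acid to prostanoid synthesis. PTGER3 and PTGER4 encode the EP3 and EP4 receptors for prostaglandin E2, and PTGFR encodes the receptor for prostaglandin F2 alpha. All 8 probes were bright enough to be tested, as were 12927 probes of the array, and no spot of these 8 probes was saturated.

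RNA came from the kidney cortex of 15 late-gestation fetal sheep (about 125 days) that all carried indwelling catheters, and each fetus had 1 array. The groups were hypoxia with ketamine (4 arrays), hypoxia with vehicle (4), normoxia with ketamine (4) and normoxia with vehicle (3). Hypoxia was imposed for 30 min by lowering the oxygen that the ewe breathed, ketamine (3 mg/kg) was infused into the fetus 10 min beforehand, the vehicle was saline, and tissue was taken 24 h after the onset. Ketamine is a dissociative anaesthetic and an antagonist of the NMDA class of glutamate receptors. The cortex was not dissected into cell types, so fewer cells of a type and less RNA per cell cannot be told apart in any value below.

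Cyclooxygenases turn arachidonic acid into prostaglandin H2, from which separate synthases make the individual prostanoids. PTGS1 is made by many cells most of the time, whereas PTGS2 is an early response gene that cytokines, growth factors and transcription factors of the AP-1 family switch on. In the kidney PTGS2 is known from the macula densa and the surrounding thick ascending limb, and from the interstitium. The EP3 receptor couples mainly to inhibition of adenylate cyclase and opposes vasopressin in tubules, the EP4 receptor raises cyclic AMP, and the receptor for prostaglandin F2 alpha signals through calcium.

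For PTGER3 and PTGER4 the array holds pairs of 60-base probes that overlap almost wholly, so each pair is a repeat reading of 1 site and not an independent second site. The sequences are printed to show that overlap, as the array annotation gives them, with the run that both probes of a pair share in capitals.
PTGER3 probe 1: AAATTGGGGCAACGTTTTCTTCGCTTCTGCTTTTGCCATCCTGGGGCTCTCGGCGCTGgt
PTGER3 probe 2: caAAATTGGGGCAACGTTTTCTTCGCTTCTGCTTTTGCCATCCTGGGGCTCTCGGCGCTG
PTGER4 probe 1: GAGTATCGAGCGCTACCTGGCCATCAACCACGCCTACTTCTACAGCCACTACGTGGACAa
PTGER4 probe 2: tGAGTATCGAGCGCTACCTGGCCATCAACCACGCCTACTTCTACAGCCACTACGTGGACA
The PTGER3 probes are offset by 2 bases and share 58, and the PTGER4 probes are offset by 1 base and share 59. The PTGS2 probes lie 184 bases apart in the transcript and read different sites. Within a pair the difference between the probes varied over the 15 arrays with an SD of 0.18 on the log2 scale for PTGS2, 0.05 for PTGER3 and 0.31 for PTGER4. The PTGER4 pair therefore disagreed most, by up to 0.58 on an array, and it is the 1 pair that was not well above background on every array. On hypoxia ketamine replicate 4 both of its probes gave only a bound.

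Values below are normalised signals on a linear scale in arbitrary units, that is, the background-subtracted scanner signal of a probe scaled so that the 75th percentile of every array is equal. They are comparable between arrays for 1 probe and not between probes. Before scaling, the 75th percentile was 1064 to 1425 over the 15 arrays. The kidney markers AQP1, AQP2, SLC34A1 and WT1 were well above background on all 15 arrays. The median correlation of an array with the other 14 was 0.946 for hypoxia vehicle replicate 4 and 0.965 for hypoxia ketamine replicate 2, and at least 0.970 for each other array. Leukocyte markers, of which 10 of 23 are on the array, summed to 3799 to 33917 in the hypoxia ketamine group, 2806 to 44320 in the hypoxia vehicle group, 1904 to 2879 in the normoxia ketamine group and 2717 to 4591 in the normoxia vehicle group. The brightest markers weigh most in such a sum (median signal of 1120 for CATHL3 and 44 for FCGR2B), so single markers need not follow it. On each array 8 or 9 of the 10 were well above background. CD4 was below it on all arrays and ITGAM on all but 3. Placental markers summed to 346 on hypoxia ketamine replicate 2 and to 1353 and 2009 on normoxia ketamine replicates 1 and 2, against 84.5 to 123 on the other arrays.

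The PTGS2 signal was very high in a pair of the hypoxia vehicle fetuses and near or below the normoxic level in all other hypoxic fetuses. The first probe read 1756, 2230, 1695 and 1467 in the hypoxia ketamine fetuses, and 26247, 1282, 1648 and 26815 in the hypoxia vehicle fetuses. The same probe read 2897, 3944, 1717 and 1800 in the normoxia ketamine fetuses, and 2450, 2816 and 2981 in the normoxia vehicle fetuses. Hypoxia vehicle replicates 1 and 4 thus stood above all 13 other arrays, while replicates 2 and 3 of that group lay below all 3 normoxia vehicle arrays. The second probe read 36.6, 44.0, 34.1 and 28.9 in the hypoxia ketamine fetuses, and 670, 26.8, 33.0 and 579 in the hypoxia vehicle fetuses. It read 46.3, 71.7, 36.3 and 30.4 in the normoxia ketamine fetuses, and 56.0, 67.2 and 64.4 in the normoxia vehicle fetuses. Both probes put the same pair of arrays on top, and over the 15 arrays they correlated at a Pearson r of 0.99.

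**Figure D1:**
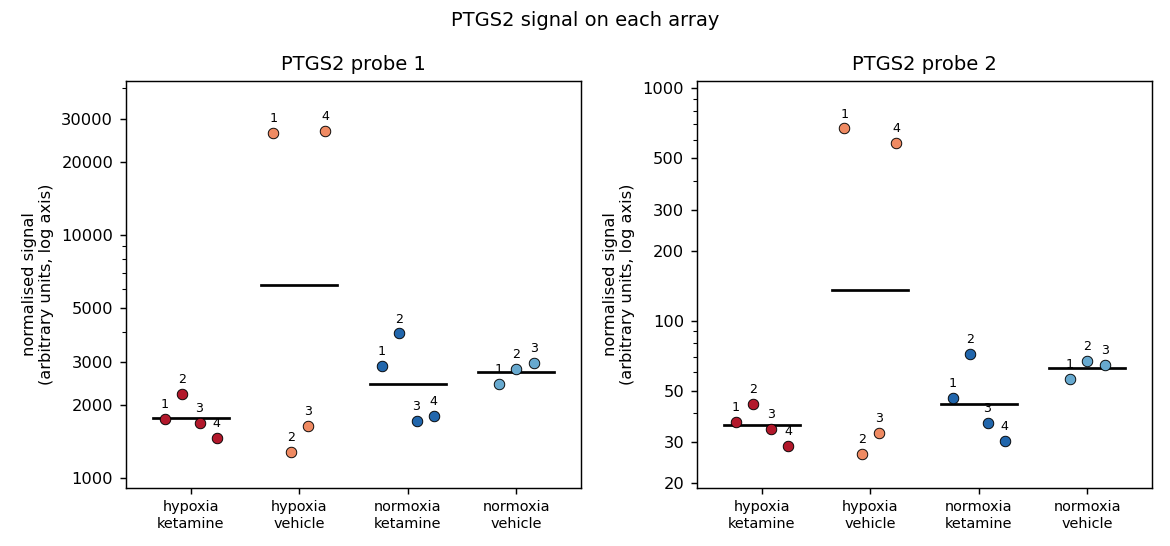
Normalised signal of the PTGS2 probes (log axes, arbitrary units) on each of the 15 arrays, with points numbered by replicate and bars at the geometric mean of each group. Hypoxia vehicle replicates 1 and 4 read 26247 and 26815 with the first probe, and the other 13 arrays read between 1282 and 3944.

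The spread of PTGS2 within the hypoxia vehicle group was among the widest on the array. Its SD on the log2 scale was 0.25 in the hypoxia ketamine group, 2.42 in the hypoxia vehicle group, 0.57 in the normoxia ketamine group and 0.15 in the normoxia vehicle group. In the hypoxia vehicle group 79 of the 12927 probes tested varied more, and the median SD over these probes was 0.29. In order of geometric mean the groups stood at 6210 (hypoxia vehicle), 2740 (normoxia vehicle), 2438 (normoxia ketamine) and 1767 (hypoxia ketamine). No neighbours in this order had an unadjusted limma p of at most 0.05 (0.216, 0.856 and 0.590). These p-values use 1 variance shared by all groups, which the hypoxia vehicle spread widens. They do not measure the spread of the 2 groups compared alone. For the second probe, limma fits of only those 2 groups gave an unadjusted p of 0.395, 0.103 and 0.284.

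Ketamine was associated with a lower PTGS2 signal in hypoxic fetuses at the threshold that the study states, an unadjusted p of at most 0.05, and only just. The log2 change of the first probe was -1.81 ± 0.84 (SE, limma, unadjusted p of 0.0499, 3.52-fold lower), and that of the second was -1.94 ± 0.88 (unadjusted p of 0.0448). These 2 were the only calls among the 8 probes in that comparison, both lower, where 6.07% of all probes tested were called and 3.49% were called lower. After Benjamini-Hochberg adjustment over all 12927 probes the p was 0.804 for each. The groups overlapped, since all 4 hypoxia ketamine arrays lay between hypoxia vehicle replicates 2 and 1, and 1.97% of all probes tested had groups that did not overlap. An exact two-sided permutation test of the first probe gave p = 0.4, where 4 against 4 arrays can reach 0.0286.

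The size of the change rested on hypoxia vehicle replicates 1 and 4. Without hypoxia vehicle replicate 1 the log2 change was -1.12 (limma, unadjusted p of 0.179) and without replicate 4 it was -1.11 (unadjusted p of 0.181), whereas without replicate 2 it was -2.57 (unadjusted p of 0.00496) and without replicate 3 it was -2.45. It was -1.93 to -1.72 without any 1 hypoxia ketamine array and -1.81 without any 1 normoxic array, with an unadjusted p of 0.0568 to 0.0913 in those 11 fits. The p stayed at or under 0.05 in 2 of the 15 fits that left out 1 array. The high pair of arrays lay on different slides: the change was -1.70 within slide 1 (unadjusted p of 0.214) and -1.93 within slide 2 (unadjusted p of 0.184), and -1.81 with slide as a block (unadjusted p of 0.0586).

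**Figure D2:**
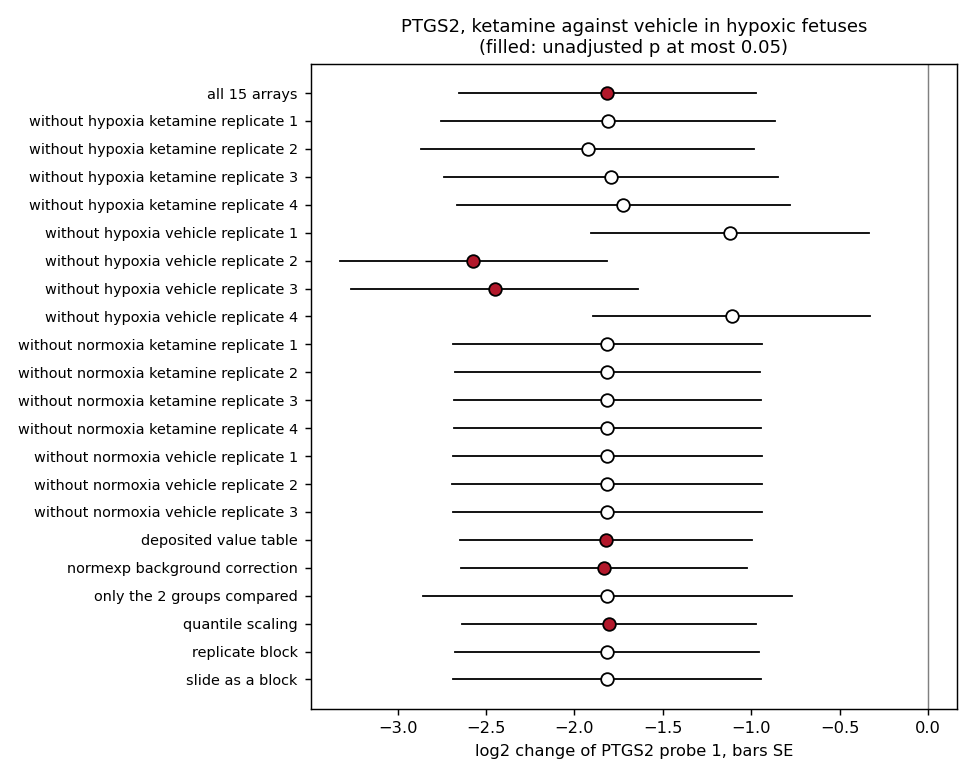
Log2 change of the first PTGS2 probe in hypoxia ketamine against hypoxia vehicle fetuses, with bars of 1 SE, in the fit of all 15 arrays, in fits that leave out 1 array each, and in fits with other processing or blocks; filled points have an unadjusted p of at most 0.05. The change lies between -2.57 and -1.11 in all of the fits that leave out 1 array, and is smallest without hypoxia vehicle replicate 1 or 4.

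Against normoxia, PTGS2 did not pass the threshold in either drug arm. In vehicle fetuses the log2 change with hypoxia was 1.18 ± 0.91 (SE, limma, unadjusted p of 0.216), with a 95% interval from -0.78 to 3.14. In ketamine fetuses it was -0.46 ± 0.84 (unadjusted p of 0.590). The median over all probes tested was -0.05 and -0.02 in these comparisons. Without hypoxia vehicle replicate 2 the change in vehicle fetuses was 1.94 (unadjusted p of 0.0327), so that 1 array decides this call. Ketamine against vehicle in normoxic fetuses gave -0.17 ± 0.91 (unadjusted p of 0.856). The interaction of hypoxia with ketamine was -1.65 ± 1.24 (unadjusted p of 0.206), so the response to hypoxia was not shown to differ between the drug arms. Without hypoxia vehicle replicate 2 the interaction was -2.40 (unadjusted p of 0.0431). Of the 8 probes none was called in hypoxia against normoxia in vehicle fetuses (16.1% of all probes tested), in hypoxia against normoxia in ketamine fetuses (8.67%), in ketamine against vehicle in normoxic fetuses (2.71%) or in the interaction (3.15%). After adjustment 0.0155% of all probes tested passed in hypoxia against normoxia in vehicle fetuses, and 0% in the other 3 pairwise comparisons and the interaction.

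**Figure D3:**
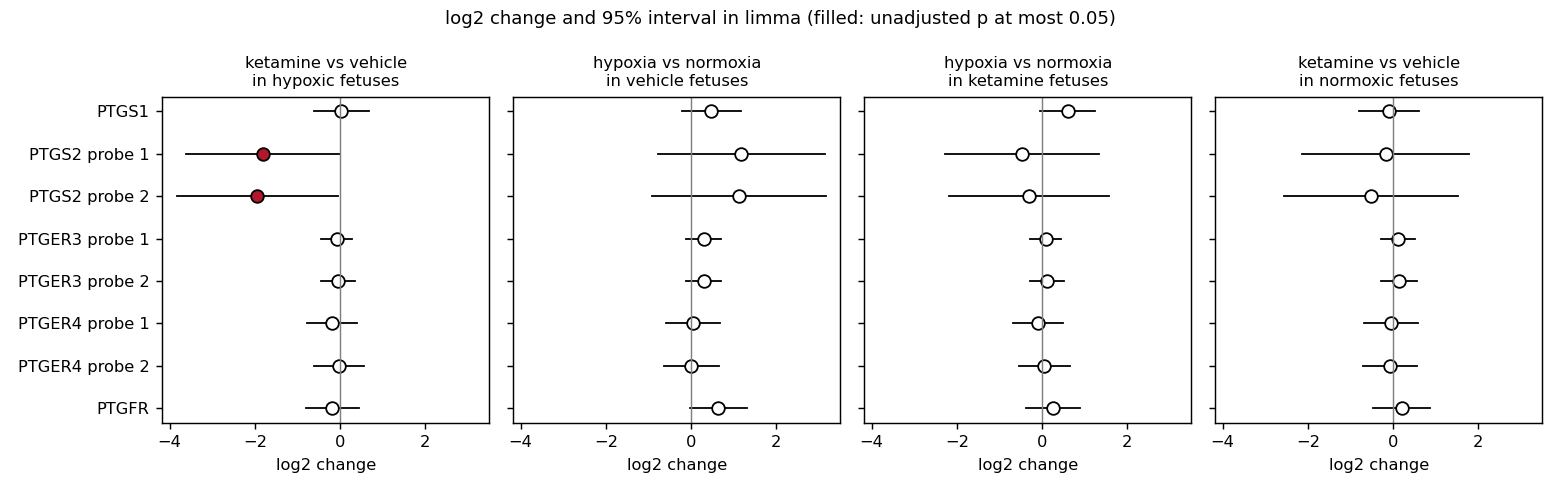
Log2 change of each of the 8 probes with its 95% interval in limma, in 4 panels 1 for each pairwise comparison: ketamine over vehicle within each oxygen group, and hypoxia over normoxia under either infusion. The filled points, with an unadjusted p of at most 0.05, are both PTGS2 probes in the first panel (-1.81 and -1.94). The PTGS2 intervals are the widest in every panel. All groups share 1 variance per probe, so the hypoxia vehicle spread widens them also in panels without that group.

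PTGS1 was higher in hypoxic than in normoxic fetuses when the drug arms were averaged, by 0.54 ± 0.22 on the log2 scale (SE, limma, unadjusted p of 0.0281, 1.46-fold). It read 858, 2455, 1126 and 1314 in the hypoxia ketamine fetuses, and 845, 1279, 1866 and 1413 in the hypoxia vehicle fetuses. It read 938, 689, 810 and 1106 in the normoxia ketamine fetuses, and 983, 780 and 1056 in the normoxia vehicle fetuses. In both arms 3 of the 4 hypoxic arrays lay above all normoxic arrays of their arm, and replicate 1 of each hypoxic group lay within the normoxic range. PTGS1 was the 1 call among the 8 probes in the averaged comparison, where 20.3% of all probes tested were called and 7.81% were called higher. The share of members called, which rests on 1 probe, was thus below that of the whole array in either direction and above it for calls higher. The adjusted p was 0.191.

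Within each arm PTGS1 did not pass the threshold with all arrays. In ketamine fetuses it passed without hypoxia ketamine replicate 1 (0.82) or normoxia ketamine replicate 4 (0.72), with weights per group (0.61) and within slide 1 (1.16). It also passed without hypoxia vehicle replicate 1 (0.61), an array outside this comparison that enters it only through the shared variance. The log2 change was 0.61 ± 0.30 in ketamine fetuses (SE, limma, unadjusted p of 0.0632) and 0.48 ± 0.32 in vehicle fetuses (unadjusted p of 0.162). Ketamine against vehicle gave 0.03 ± 0.30 in hypoxic and -0.10 ± 0.32 in normoxic fetuses, with 95% intervals from -0.61 to 0.68 and from -0.79 to 0.60. By geometric mean the groups stood at 1329 (hypoxia ketamine), 1299 (hypoxia vehicle), 932 (normoxia vehicle) and 872 (normoxia ketamine). Neighbours in this order did not pass the threshold (limma, unadjusted p of 0.916, 0.162 and 0.773). The averaged change was 0.89 within slide 1 (unadjusted p of 0.00842) and 0.15 within slide 2 (unadjusted p of 0.668). The call was lost without hypoxia vehicle replicate 3 (0.46), normoxia ketamine replicate 2 (0.49) or normoxia vehicle replicate 2 (0.48), and also without the 3 arrays with placental signal (0.34, unadjusted p of 0.126).

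PTGS1 was highest on the arrays with the highest leukocyte marker sums. These were hypoxia ketamine replicate 2 and hypoxia vehicle replicate 3, with sums of 33917 and 44320. The next sums were 13014 on hypoxia ketamine replicate 4 and 13178 on hypoxia vehicle replicate 2, where PTGS1 read 1314 and 1279. The order did not hold there, since PTGS1 read 1413 on hypoxia vehicle replicate 4 with a sum of 4562. The part of these cells in the PTGS1 difference was not tested. Of 831 named genes, the 5 whose log2 values ran most like PTGS1 over the 15 arrays were AHSP (r = 0.906), which encodes a chaperone of alpha globin in red cell precursors, FCER1G (0.900), an immunoglobulin receptor subunit of myeloid cells, CATHL1B (0.876), a neutrophil cathelicidin, ITGB2 (0.853), a leukocyte integrin, and CD86 (0.850), a costimulator on antigen-presenting cells. Spearman's rho for these genes was 0.714 to 0.879. Without the arrays farthest from the PTGS1 median, hypoxia ketamine replicate 2 and hypoxia vehicle replicate 3, r was 0.826 for AHSP and 0.612 to 0.762 for the other 4. After subtraction of group means the leading genes were AHSP, FCER1G, CD5, CD86 and ITGAL (r of at most 0.904). These correlations describe likeness over arrays that share batches and groups, and carry no test.

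**Figure D4:**
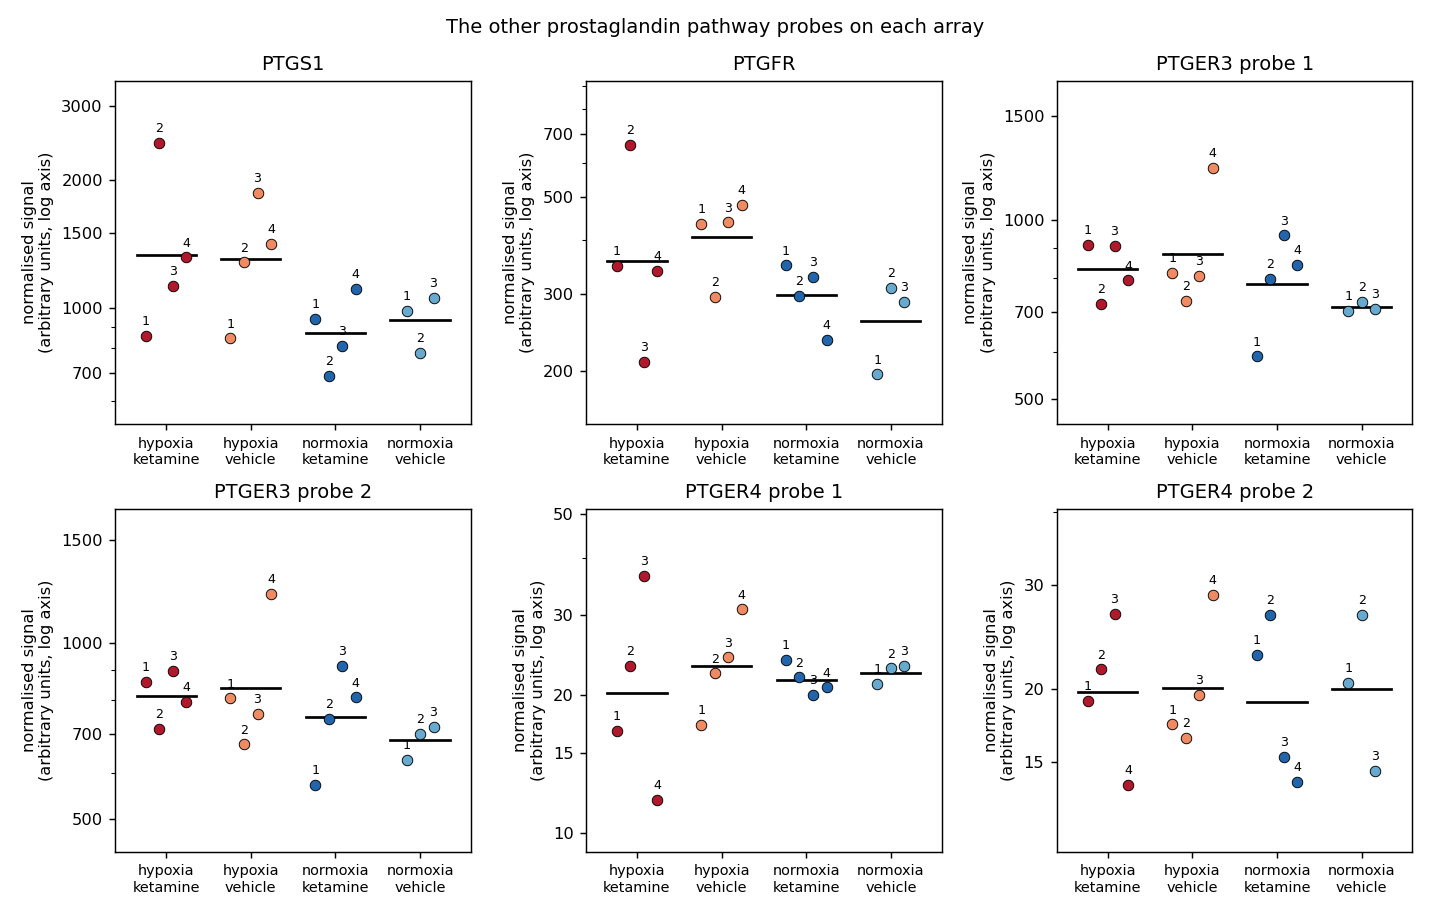
Normalised signal (log axes, arbitrary units) of PTGS1, PTGFR and the paired PTGER3 and PTGER4 probes on each array, with points numbered by replicate and bars at the geometric mean of each group. PTGS1 is highest on hypoxia ketamine replicate 2 (2455) and hypoxia vehicle replicate 3 (1866), and PTGER3 on hypoxia vehicle replicate 4 (1227).

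PTGFR was higher on most hypoxia vehicle arrays than on the normoxia vehicle arrays but missed the threshold. It read 347, 662, 209 and 340 in the hypoxia ketamine fetuses, and 434, 295, 438 and 481 in the hypoxia vehicle fetuses. It read 349, 297, 329 and 235 in the normoxia ketamine fetuses, and 196, 309 and 288 in the normoxia vehicle fetuses. In vehicle fetuses 3 of the 4 hypoxic arrays lay above all normoxic ones, whereas in ketamine fetuses the hypoxic arrays spanned both sides of the normoxic range. The log2 change with hypoxia was 0.64 ± 0.31 in vehicle fetuses (SE, limma, unadjusted p of 0.0606), 0.26 ± 0.29 in ketamine fetuses (unadjusted p of 0.392) and 0.45 ± 0.21 averaged over the arms (unadjusted p of 0.0547). Without hypoxia ketamine replicate 3 the averaged change was 0.58 (unadjusted p of 0.00867), without hypoxia vehicle replicate 2 it was 0.53 (unadjusted p of 0.0305) and without normoxia vehicle replicate 2 it was 0.51 (unadjusted p of 0.0481), so that leaving out 1 array can make the call. The averaged change passed in 4 alternative settings, these included. The change in vehicle fetuses also passed without hypoxia vehicle replicate 2 (0.80, unadjusted p of 0.0306). It passed at an unchanged 0.64 without hypoxia ketamine replicate 2 (unadjusted p of 0.0188) or 3 (unadjusted p of 0.0303). Those hypoxia ketamine arrays are outside this comparison and enter it only through the shared variance. Counting these, the change in vehicle fetuses passed in 7 alternative settings. The others were array weights, only the 2 groups compared, without the arrays with placental signal, and without both hypoxia vehicle replicate 4 and hypoxia ketamine replicate 2. Ketamine against vehicle gave -0.18 ± 0.29 in hypoxic fetuses and 0.21 ± 0.31 in normoxic fetuses.

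The group order of PTGFR by geometric mean was 405 (hypoxia vehicle), 358 (hypoxia ketamine), 299 (normoxia ketamine) and 259 (normoxia vehicle). Neighbours in this order did not pass the threshold (limma, unadjusted p of 0.544, 0.392 and 0.524). Among the named genes most like PTGFR over the 15 arrays were CD14 (r = 0.897), the lipopolysaccharide coreceptor of monocytes, PDXK (0.865), a kinase of vitamin B6, FAS (0.827), a death receptor, and TRPV6 (0.796), an epithelial calcium channel. Without hypoxia ketamine replicate 2 and normoxia vehicle replicate 1, the arrays farthest from the PTGFR median, r with CD14 was 0.808. CD14 is also a leukocyte marker, and the part of leukocytes in the PTGFR pattern was not tested.

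PTGER3 was called in no comparison in the fit of all arrays. The SD of its first probe on the log2 scale was 0.33 (hypoxia vehicle), 0.29 (normoxia ketamine), 0.16 (hypoxia ketamine) and 0.026 (normoxia vehicle). The median SDs over all probes tested were 0.29, 0.21, 0.24 and 0.18 in these groups. The first probe read 910, 724, 905 and 792 in the hypoxia ketamine fetuses, and 817, 733, 805 and 1227 in the hypoxia vehicle fetuses. It read 590, 796, 943 and 841 in the normoxia ketamine fetuses, and 705, 729 and 710 in the normoxia vehicle fetuses. All 4 hypoxia vehicle arrays lay above all 3 normoxia vehicle arrays with this probe, as was so, in either direction, for 14.6% of all probes tested, and the second probe did not separate them. The log2 change was 0.30 ± 0.19 (SE, limma, unadjusted p of 0.136), and the exact two-sided permutation test gave 0.0571, the smallest p that 4 against 3 arrays allow. In the other pairwise comparisons the change was 0.13 or less in size, with 95% intervals between -0.45 and 0.53. The groups stood at 877 (hypoxia vehicle), 829 (hypoxia ketamine), 781 (normoxia ketamine) and 715 (normoxia vehicle) by geometric mean, and no neighbours passed the threshold.

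PTGER4 showed no difference that its signal could resolve. Its first probe read 16.7, 23.2, 36.6 and 11.8 in the hypoxia ketamine fetuses, and 17.2, 22.4, 24.2 and 30.8 in the hypoxia vehicle fetuses. It read 23.9, 21.9, 20.04 and 20.8 in the normoxia ketamine fetuses, and 21.2, 22.9 and 23.2 in the normoxia vehicle fetuses. On the same scale detection began at 19.5 (the lowest signal well above background) on hypoxia ketamine replicate 4 and at 6.68 to 11.9 on the other arrays. The log2 changes ranged from -0.19 to 0.05 over the pairwise comparisons, with SEs of 0.27 to 0.29 (limma, unadjusted p of 0.486 to 0.877). Without hypoxia ketamine replicate 3 the change with ketamine in hypoxic fetuses was -0.48 (limma, unadjusted p of 0.0478). That value includes replicate 4, where PTGER4 was not well above background, and without replicate 4 the change was 0.063. The exact permutation tests of the 5 genes in the 4 pairwise comparisons, 20 in all, had adjusted p-values of 0.762 or more.

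Likeness was weaker for both E-type receptors than for the other genes. PTGER3 ran most like SLC25A37 (r = 0.714), a mitochondrial iron importer, CRYAB (0.675), a small heat shock protein, CCN1 (0.647), a matrix-associated growth regulator, SERPINA1 (0.639), a protease inhibitor, and SFN (0.620), a 14-3-3 protein. Without hypoxia vehicle replicate 4 and normoxia ketamine replicate 1, the arrays farthest from the PTGER3 median, r was 0.796 for SERPINA1 and 0.092 to 0.298 for the other 4, whose likeness thus rested on these arrays. PTGER4 ran most like PTGDS (r = 0.726), the prostaglandin D2 synthase, NKX2.2 (0.698) and STAT5A (0.671), which encode transcription factors, FGFR3 (0.683), a growth factor receptor, and a probe that the array names EP4d (0.663) and does not describe further. Without hypoxia ketamine replicates 4 and 3, r with PTGDS was 0.553.

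The genes most like PTGS2 were mostly early response genes that were high on the same pair of arrays. Over the 15 arrays r was 0.947 for EGR1, an early response transcription factor, 0.925 for ZFP36, which encodes a protein that destabilises cytokine and PTGS2 transcripts, 0.901 for JUN, an AP-1 subunit, 0.891 for KIF5B, a kinesin motor, and 0.890 for RGS2, a regulator of G protein signalling. PTGS2 splits the arrays into hypoxia vehicle replicates 1 and 4 and the other 13, so these values mostly measure that split. Among the other 13 arrays r was 0.42 for EGR1, 0.044 for ZFP36, 0.11 for JUN, 0.65 for KIF5B and 0.21 for RGS2, and the likeness of all but KIF5B rested largely on the pair. After subtraction of group means IL6 (0.928) and CXCL8 (0.922) took the places of KIF5B and RGS2. That subtraction leaves the split within the hypoxia vehicle group in place, so these values mostly measure it too. IL6 was not well above background on any normoxic array.

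**Figure D5:**
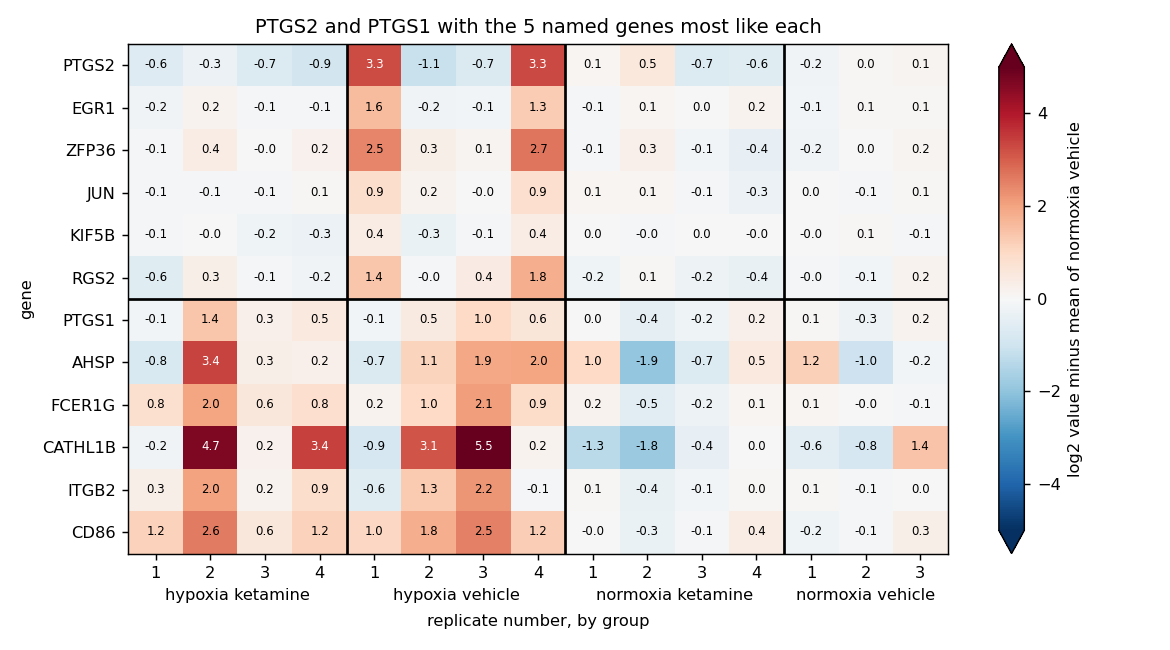
Log2 value of each array minus the mean of the normoxia vehicle arrays (colour and printed value) for PTGS2 and PTGS1, each above the 5 named genes most like it, with arrays in columns by group and replicate number. PTGS2 and its neighbours are high on hypoxia vehicle replicates 1 and 4, whereas PTGS1 and its neighbours are highest on hypoxia ketamine replicate 2 and hypoxia vehicle replicate 3, except AHSP, whose second highest array is hypoxia vehicle replicate 4.

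The readings of single genes show how far this pair of arrays stood from its group. EGR1 read 407, 122, 124 and 329.5 in the hypoxia vehicle fetuses, and 124, 141 and 143 in the normoxia vehicle fetuses. FOS, the partner of JUN in AP-1, read 27966, 1482, 1415 and 20884 in the hypoxia vehicle fetuses, and 906, 2910 and 992 in the normoxia vehicle fetuses. CXCL8, a neutrophil chemoattractant, read 9818, 262, 206 and 9815 in the hypoxia vehicle fetuses, and 70.4, 55.0 and 67.2 in the normoxia vehicle fetuses. For FOS the other 2 hypoxia vehicle arrays lay within the normoxia vehicle range and for EGR1 at or just below its lower end, while for CXCL8 they lay above it. The leukocyte marker sums ran the other way, at 2806 and 4562 on replicates 1 and 4 and 13178 and 44320 on replicates 2 and 3 of the hypoxia vehicle group. These sums are led by the brightest markers and do not speak for each marker. The part of leukocytes or of any other cell type in the PTGS2 pattern was not tested.

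Cytokines, receptors and transcription factors known to act on PTGS2 were mostly higher in hypoxic vehicle fetuses. Of 31 such genes listed, 21 were measured, and 14 were higher and 1 lower in hypoxia against normoxia in vehicle fetuses, where 5.77% of all probes tested were called higher and 10.4% lower. The list was chosen with earlier results of these data known, so its counts are a description and not a test of enrichment. The median log2 change was 2.04 over the 21 genes and -0.05 over all probes tested. The count called higher was 11 to 17 when 1 array was left out, 10 within slide 1 and 4 within slide 2. In 18 of the 21 genes hypoxia vehicle replicates 1 and 4 were the highest arrays of their group, as they were for 17.6% of all probes tested, a count made after the PTGS2 pattern was seen.

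Among the inducing cytokines, TNF changed by 4.05 ± 0.67 on the log2 scale (SE, limma, unadjusted p of 3.59e-05), IL1B by 3.56 ± 0.78, IL1A by 3.20 ± 0.97 and CXCL8 by 4.56 ± 1.24. TNF read 996, 509.9, 449 and 2862 in the hypoxia vehicle fetuses, and 50.9, 53.6 and 58.8 in the normoxia vehicle fetuses, with no overlap, as for 14.6% of all probes tested. IL1B read 2336, 261, 132 and 1437 in the hypoxia vehicle fetuses, and 51.2, 45.8 and 51.6 in the normoxia vehicle fetuses, again with no overlap. Unlike PTGS2, both cytokines thus stood above the normoxia vehicle arrays on all 4 hypoxia vehicle arrays. IL6 was well above background on 2 of the 4 hypoxia vehicle arrays (2933 and 9889 on replicates 1 and 4) and on none of the 3 normoxia vehicle arrays. It is counted among the genes called higher, but it passed the filter on dim probes only through hypoxic arrays. Replicates 2 and 3 were not well above background either, so no fold or p is given for IL6.

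The other calls in this comparison were receptors and nuclear regulators. The receptors and adaptor of innate sensing rose by 2.04 for TLR2, 1.15 for TLR4 and 0.58 for MYD88 on the log2 scale. The transcription factors rose by 2.60 for CEBPB, 2.79 for JUNB and 0.47 for JUN. Genes known to restrain the pathway also rose, by 3.68 for IL1RN, the interleukin 1 receptor antagonist, 2.55 for NFKBIA, the inhibitor of NF-kappa B, and 1.39 for ZFP36. NR3C1, the glucocorticoid receptor, through which glucocorticoids repress PTGS2, fell by 0.42. None of these 15 calls passed adjustment over all probes, with an adjusted p of 0.0655 for TNF and 0.114 or more for the others.

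The same list was lower with ketamine in hypoxic fetuses: 13 of the 21 genes were lower and none higher, against 3.49% and 2.58% of all probes tested. This comparison shares the hypoxia vehicle arrays with the previous one, so its direction is not independent of it. TNF read 84.9, 498, 67.2 and 149.5 in the hypoxia ketamine fetuses and changed by -2.65 ± 0.62 against vehicle (SE, limma, unadjusted p of 0.000848, adjusted p = 0.800). CXCL8 read 158, 542, 94.5 and 65.8 there and changed by -3.31 ± 1.14 (unadjusted p of 0.0123). IL1B read 62.2, 206, 79.2 and 61.4 and changed by -2.71 ± 0.72 (unadjusted p of 0.00228). The other 10 calls were NFKBIA (-1.59), IL1A (-2.40), IL1RN (-2.58), JUNB (-2.16), FOS (-2.04), TLR2 (-1.66), ZFP36 (-1.27), TLR4 (-0.95), JUN (-0.52) and MYD88 (-0.47). The count was 8 to 17 when 1 array was left out, 4 within slide 1, 6 within slide 2 and 11 with slide as a block. The groups overlapped for all 13 genes.

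The remaining comparisons gave few calls on this list, apart from the average over the drug arms. In ketamine fetuses TNF was higher with hypoxia (1.52 ± 0.62, limma, unadjusted p of 0.0289) and NR3C1 lower (-0.38, unadjusted p of 0.0401), against 3.71% of all probes called higher and 4.97% lower, which leaves 19 of 21 genes that missed the threshold. The count called higher was 0 to 3 when 1 array was left out, 4 under normexp or with weights per group, and 8 in a fit of only these 2 groups. IL1B (0.89 ± 0.72), CXCL8 (1.29 ± 1.14) and NFKBIA (0.81 ± 0.50) were among these. No gene of the list was called in ketamine against vehicle in normoxic fetuses, where 0.951% of all probes were called higher and 1.76% lower. In the interaction 4 were lower, TNF (-2.53), IL1B (-2.66), NFKBIA (-1.74) and TLR4 (-1.46), against 1.1% of all probes lower and 2.05% higher. Averaged over the drug arms 14 were higher with hypoxia and 2 lower, NR3C1 and NFAT5 (-0.30), an osmotic stress factor. FOS (2.83-fold, unadjusted p of 0.0465) and IL10 (log2 change of 1.55, unadjusted p of 0.0493), an anti-inflammatory cytokine, were called higher there and not in vehicle fetuses alone. The other 12 called higher are given with log2 changes, not folds. They were TNF (2.78), NFKBIA (1.68), IL1B (2.23), IL1RN (2.64), CEBPB (1.97), JUNB (1.80), CXCL8 (2.93), IL1A (2.24), TLR2 (1.22), MYD88 (0.33), ZFP36 (0.80) and IL6, which was not well above background on any normoxic array. After adjustment TNF (adjusted p = 0.0119) and NFKBIA (adjusted p = 0.0419) passed, as did 1.6% of all probes tested.

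Tubular genes tied to renal prostanoids were measured for 14 of the 21 listed. With hypoxia 1 was higher and 1 lower in vehicle fetuses, where 5.77% and 10.4% of all probes tested were so called, and 2 were lower in ketamine fetuses, where 4.97% were. With ketamine 1 was lower in hypoxic fetuses, where 3.49% were, and none was called in normoxic fetuses or in the interaction. In hypoxia against normoxia in vehicle fetuses AGTR1, the type 1 angiotensin receptor, was lower (-1.09 ± 0.31) and AQP3, a basolateral water channel, was higher (0.73 ± 0.22). HSD11B1, which regenerates active glucocorticoid, was among those lower with hypoxia in ketamine fetuses (-0.79 ± 0.34). Averaged over the arms 1 was higher and 2 lower, as were 7.81% and 12.5% of all probes tested. AGTR1 (-0.71) and HSD11B1 (-0.58) were lower and AQP3 (0.50) was higher.

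Other steps of the pathway are thinly covered under names that do not start with PTG. None of the 11 listed genes of arachidonic acid release was among the tested probes. Among synthases and transporters SLCO2A1, the prostaglandin transporter, was measured, and PTGDS, the prostaglandin D2 synthase, is on the array under an older name. SLCO2A1 read 661, 475, 341 and 406 in the hypoxia ketamine fetuses, and 521, 497, 381 and 391 in the hypoxia vehicle fetuses. It read 433, 424, 404 and 361 in the normoxia ketamine fetuses, and 363, 343 and 370 in the normoxia vehicle fetuses. All 4 hypoxia vehicle arrays lay above the normoxia vehicle ones, a lack of overlap shared by 14.6% of all probes tested, with a change of 0.31 ± 0.19 (SE, limma, unadjusted p of 0.133). PTGDS changed by -0.48 ± 0.31 with ketamine in normoxic fetuses (unadjusted p of 0.142), where the groups did not overlap, as for 7.12% of all probes tested, and it passed the threshold in none of the 6 comparisons.

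CYP4F21, described on the array as a prostaglandin omega-hydroxylase, was lower with hypoxia in ketamine fetuses by 1.44 on the log2 scale (limma, unadjusted p of 0.0124, adjusted p = 0.423). It read 26.0, 36.6, 25.7 and 26.7 in the hypoxia ketamine fetuses, and 39.7, 224, 95.1 and 42.1 in the normoxia ketamine fetuses, with no overlap, as for 6.51% of all probes tested. Its interaction was -1.81 ± 0.73 (unadjusted p of 0.0276). Among the arrays with placental signal, normoxia ketamine replicate 2 had the highest reading of its group and replicate 1 the lowest. Hypoxia ketamine replicate 2, also with placental signal, had the highest reading of its own group. The part of the placental signal was not tested. The receptors EP1 and EP2 have paired probes under other names. The EP1 pair was well above background on all 15 arrays, while the EP2 probes were so on 14 and 2 arrays, and the 3 that could be tested were not called in any comparison. PPARG and PPARA, nuclear receptors for fatty acid derivatives, and ALOX5AP, which presents arachidonic acid to 5-lipoxygenase, were measured and not called.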

How the data were processed

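Signals came from 1-colour Agilent ovine arrays, 1 per fetus, on 2 slides that each held arrays of all 4 groups. Per the file headers, the scanner intensity deposited by the authors was background subtracted and spatially detrended by Agilent Feature Extraction 10.1.1.1, and was not scaled from array to array. The authors' table of processed values is on a log2 scale, with column medians of 8.98 to 8.99. The submitters' processing notes name limma, and how that table was filtered was not given in the sources used here. Of its 15 columns, 12 followed another array of their own group, so replicate numbers follow the scanner files.

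From the intensity, log2 values were taken relative to each array's 75th percentile, spots flagged as outliers were dropped, and spots of a probe were averaged. Probes well above background on at least 3 of 15 arrays were tested in limma 3.58.1 (R 4.3.3), with 1 mean per group and a shared variance over all 15 arrays, two-sided, at the unadjusted p of 0.05 that the study states and with Benjamini-Hochberg adjustment over 12927 probes. The script was tested on simulated data. Where a gene has several probes, the brightest stands for it. Exact permutation tests used scipy 1.17.1. P-values measure the spread between fetuses, and the number of arrays limits the precision.

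Gene names are those of the array design, brought up to date with RefSeq for 1351 probes, with 9 probes renamed from older names by a hand-written table. The members, lists and tests were chosen with earlier results of these data known. Every PTG probe is named, as are list genes past the unadjusted threshold, IL1B, TNF, CXCL8 and NFKBIA, and the 5 named genes most like each PTG gene, except for genes that are not reported here. Sequences of probes outside coding regions, of proteins and of promoters were not used here. Arrays of the same replicate number deviated together with a median r of 0.04 (-0.29 to 0.37 over 21 pairs), so numbers were not taken as pairs. Alternatives were other scaling, background correction, filters, blocks, weights, the deposited table and left-out arrays.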

Additional observations from a re-analysis of the deposited data

Results flagged for a closer look

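No group of 4 arrays held a single outlying reading among 24 tests of the 8 PTG probes. No PTG probe had an interaction past the unadjusted threshold. The outlier test looks for 1 reading far from its nearest neighbour, so it cannot flag 2 high arrays. Such a pair were hypoxia vehicle replicates 1 and 4 for the first PTGS2 probe (26247 and 26815, against 1282 and 1648). For the other pathway and list genes 123 groups of 4 arrays were tested, where chance picks out about 1 in 20. In these, 4 readings stood apart by their gap to the nearest other reading as a share of the group's range. These were SCNN1G, an epithelial sodium channel subunit, on hypoxia vehicle replicate 1 (264.5, share 0.977), CYP4F21 on hypoxia ketamine replicate 2 (36.6, share 0.894), MYD88 on hypoxia ketamine replicate 2 (135, share 0.878) and AGTR1, low on normoxia ketamine replicate 3 (3809, share 0.861).

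The interaction of hypoxia with ketamine passed the unadjusted threshold in limma for TNF (-2.53 on the log2 scale, unadjusted p of 0.0153), IL1B (-2.66, unadjusted p of 0.0258), CYP4F21 (-1.81, unadjusted p of 0.0276), NFKBIA (-1.74, unadjusted p of 0.0340) and TLR4 (-1.46, unadjusted p of 0.0385). Of all probes tested 3.15% passed this threshold, and the adjusted p was 0.989 for each of these genes.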

How the results depend on the processing

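The number of arrays and the wide spread of the hypoxia vehicle group limit these comparisons, and for PTGER4 also its closeness to background. Fits within slide 2 rest on 1 normoxia vehicle array. The cause of the changes below was not tested, beyond the fewer arrays or probes that a setting has by construction. The setting without hypoxia vehicle replicate 4 and hypoxia ketamine replicate 2, the arrays least like the rest, was chosen after seeing the data, and a further setting left out the 3 arrays with placental signal. Replicate numbers are shared between groups but same-numbered arrays did not deviate together.

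For PTGS2, ketamine against vehicle in hypoxic fetuses missed the threshold at -1.81 with no filter, only the 2 groups, a replicate block (unadjusted p of 0.0599) or a slide block, at -1.70 within slide 1, -1.93 within slide 2 and without the placental arrays, and -1.22 without the 2 arrays least like the rest. Its averaged hypoxia change reversed to -0.050 without those 2 arrays, and its normoxic ketamine change to 0.36 within slide 1. For PTGS1 the averaged change missed the threshold at 0.15 within slide 2, 0.38 without the 2 arrays and 0.34 without the placental arrays, and the hypoxia change in ketamine fetuses passed it at 0.61 with weights per group and 1.16 within slide 1. The PTGS1 interaction reversed to -0.19 within slide 2, -0.13 without the 2 arrays and -0.28 without the placental arrays. Its ketamine change in hypoxic fetuses reversed to -0.12 with array weights, -0.35 within slide 2, -0.22 without the 2 arrays and -0.26 without the placental arrays, and in normoxic fetuses to 0.022 without the placental arrays.

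The receptors reversed only in changes that missed the threshold in the fit of all arrays. PTGER3 reversed to 0.018 (interaction) and 0.15 (ketamine, hypoxic) without the 2 arrays, -0.038 (hypoxia, ketamine) without the placental arrays, 0.037 (ketamine, hypoxic) with array weights, 0.16 (the same) within slide 2 and -0.065 (ketamine, normoxic) within slide 1. PTGER4 under normexp reversed to 0.42 (interaction), 0.089 (averaged), 0.30 (hypoxia, ketamine), -0.12 (hypoxia, vehicle) and 0.16 (ketamine, hypoxic), and within slide 2 to 0.46, 0.046, 0.28, -0.18 and 0.28 for the same changes. It also reversed to -0.019 with array weights and -0.091 without the 2 arrays (hypoxia, vehicle), and to 0.034 with quantile scaling and 0.053 within slide 1 (ketamine, normoxic). PTGFR reversed to -0.044 within slide 2 and -0.039 without the 2 arrays (hypoxia, ketamine), 0.33 within slide 1 (ketamine, hypoxic) and -0.053 within slide 2 (ketamine, normoxic).

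The number of PTG probes called in the averaged comparison was 2 under normexp and 0 without the 2 or the placental arrays. In ketamine fetuses hypoxia gave 1 with weights per group or within either slide. In vehicle fetuses it gave 1 with array weights, only the 2 groups, or without the 2 or the placental arrays. Ketamine in hypoxic fetuses gave 1 with no filter, normexp or quantile scaling, and 0 with only the 2 groups, either block, within either slide, or without the 2 or the placental arrays.

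Over all probes the calls moved most as follows. The interaction had 912 with array weights, 198 under normexp, 229 within slide 1, 941 without the 2 arrays and 714 without the placental arrays. The averaged comparison had 1684 under normexp, 1583 and 1086 within slides 1 and 2, and 1742 without the placental arrays. Hypoxia in ketamine fetuses had 1796 with array weights and 606 within slide 1, and in vehicle fetuses 1255 under normexp, 1203 within slide 1 and 664 within slide 2. Ketamine in hypoxic fetuses had 399 under normexp, 432 with only the 2 groups, 276 within slide 1, 1247 without the 2 arrays and 1461 without the placental arrays. In normoxic fetuses it had 1007 with array weights, 113 under normexp, 673 with only the 2 groups, 790 with weights per group and 556 without the 2 arrays.

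With 1 array left out at a time, PTGS2 ran from -2.57 to -1.11 (ketamine, hypoxic), 0.48 to 1.94 (hypoxia, vehicle) and -2.40 to -0.94 (interaction). PTGS1 ran from 0.40 to 0.65 (averaged), 0.31 to 0.82 (hypoxia, ketamine), -0.17 to 0.34 (interaction), -0.26 to 0.24 (ketamine, hypoxic) and -0.22 to 0.018 (ketamine, normoxic). PTGER3 ran from -0.050 to 0.18 (hypoxia, ketamine) and -0.17 to 0.081 (ketamine, hypoxic). PTGER4 ran from -0.43 to 0.12 (interaction), -0.17 to 0.10 (averaged), -0.38 to 0.16 (hypoxia, ketamine), -0.091 to 0.19 (hypoxia, vehicle) and -0.48 to 0.063 (ketamine, hypoxic). PTGFR ran from -0.039 to 0.51 (hypoxia, ketamine) and -0.48 to 0.077 (ketamine, hypoxic). The PTG probes called ran from 0 to 1 (interaction), 0 to 2 (averaged), 0 to 1 (hypoxia, ketamine), 0 to 3 (hypoxia, vehicle) and 0 to 2 (ketamine, hypoxic). Over all probes they ran from 239 to 986 (interaction), 1304 to 2453 (hypoxia, vehicle), 486 to 1606 (ketamine, hypoxic) and 211 to 539 (ketamine, normoxic).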
